A study of Mus musculus and Rattus norvegicus with 53 samples.

Results

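Cultured rat Schwann cells (SCs) treated with TGFβ were compared with untreated cultures from the same animals. Of the 53 libraries of the series, 6 belong to this experiment: 3 from SCs kept with TGFβ and 3 from controls, chosen by their titles and source names in the labels. The labels give each library an animal number, so that every treated culture of rats 1, 2 and 3 has a control culture of the same rat. The other 47 libraries come from SCs sorted from mouse nerves and are used here only for the share of reads on genes. The primary SCs came from sciatic nerves of Sprague-Dawley pups of both sexes at postnatal day 7, and macrophages and fibroblasts had been depleted by antibody panning. They were grown on poly-L-lysine and laminin in medium with serum, forskolin, which raises cyclic AMP, and glial growth factor, a neuregulin and SC mitogen. The medium is described for the rat cultures in general and not separately for either group. Treated cells received recombinant TGFβ at 10 ng/ml overnight, and controls received none. The sources used here do not say whether a rat number stands for 1 pup or a pool of pups. The 3 rats are independent of each other as far as the labels tell, and p-values apply to these 6 cultures only. In such bulk cultures, fewer cells of a type and less RNA per cell cannot be told apart.

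TGFβ is a secreted growth factor that is held in the matrix in a latent form and is released during wound healing. It binds a receptor complex of type II and type I serine/threonine kinases, which phosphorylate the transcription factors Smad2 and Smad3. With Smad4, these enter the nucleus and change the transcription of target genes, many of which act in matrix deposition, adhesion and the epithelial-to-mesenchymal transition. SCs are the glia of peripheral nerves and both produce and respond to TGFβ. The experiment was made to obtain the transcriptional response of SCs to TGFβ itself, away from the wound.

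The deposited rat counts list 26405 genes by Ensembl rat identifier, and the files do not pair these identifiers with gene names. No name or position was therefore given to any of them, and only 2 identifiers that rose and 2 that fell are printed. For the same reason the markers of SCs, fibroblasts and macrophages could not be read from these libraries, and the labelled cell type was not checked.

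Few reads of these libraries were counted on genes, which sets the resolution of everything that follows. Counts on genes lay between 412821 and 565296 per library, with from 9860 to 12207 identifiers detected. A further 12007 identifiers had no count in any of the 6 libraries. The counts on genes made up 1.30%, 1.23% and 1.05% of the uniquely aligned reads in the controls of rats 1, 2 and 3, and 0.992%, 1.35% and 1.25% in the treated cultures. The groups overlapped in this share. In the 47 mouse libraries the same share lay between 39.2% and 47.1%, with a median of 43.3%. Of all alignments reported for the rat libraries, from 37.3% to 58.8% were not unique, against 5.59% to 13.1% in mouse. By the study's methods, the rat libraries were made from 500 ng of RNA with a kit that keeps the strand of the transcript. The mouse libraries were made by Smart-seq2, which does not keep it. The labels name Smart-seq2 for every sample, the rat cultures included. The strand setting of HTSeq, which assigned the reads to genes, is not given in the sources used here. With a setting opposite to that of the kit, HTSeq would count reads on the antisense strand of a gene and leave out its own transcripts. Whether this was so in the rat counts was not tested, and each value below is a count assigned to an identifier as deposited, from whichever strand it came.

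On the first 2 principal components, cultures of the same rat lay closer to each other than to those of other rats. With TGFβ, each rat was shifted in a common direction on the first and on the third. In a principal component analysis of log2 CPM (counts scaled to a common total over the tested genes, with TMM factors) over the 3888 genes with enough counts to test, the first component held 29.9% of the variance and the second 26.4%. In the plane of both components the 2 cultures of each rat lay beside each other, and the rats lay apart. Rat 2 stood at one end of the first component (-17.0 for its control and -29.0 for its treated culture). This component also fell with TGFβ in the other rats, from 20.2 to 6.98 in rat 1 and from 19.2 to -0.35 in rat 3. The conditions overlapped on it. On the second component rat 1 lay at 18.3 and 20.8 and rat 3 at -20.6 and -22.7. The third component, with 22.0% of the variance, rose with TGFβ in each rat, from -10.3 to 20.1 in rat 1, from -15.9 to -2.26 in rat 2 and from -13.6 to 22.0 in rat 3. On this component the treated cultures lay above all controls. On the fourth, with 13.9% of the variance, rat 1 fell from 17.6 to -15.3 and rat 3 rose from -14.0 to 12.8. Rat 2 moved little on it, from -0.83 to -0.37. Rat 2 also had the most identifiers detected in each condition, 12207 in its control and 11295 in its treated culture, against 9860 to 10537 in the 4 libraries of rats 1 and 3. Whether a rat number also stands for a day of culture or of library preparation cannot be told apart from the animal.

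**Figure D1:**
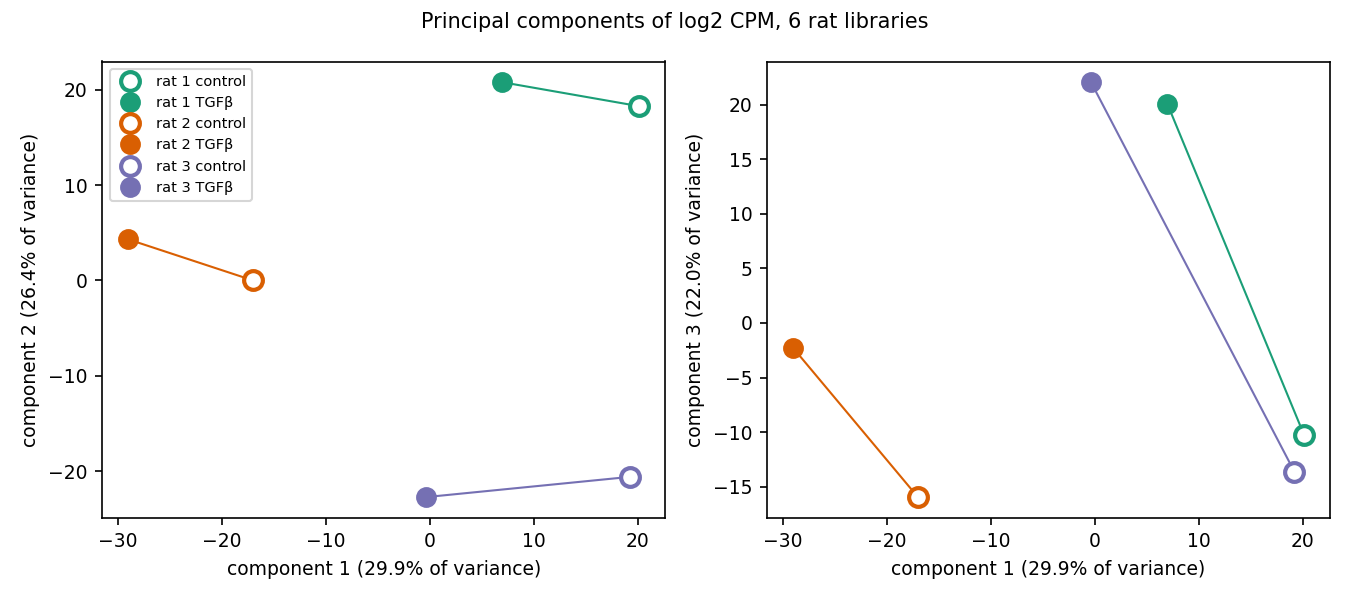
Principal components 1 and 2 (left) and 1 and 3 (right) of log2 CPM for the 6 libraries, in units of the component score. Open circles are controls, filled circles are treated with TGFβ, and a line joins the cultures of each rat. The lines of the rats stand apart on components 1 and 2. Each falls on component 1 and rises on component 3.

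The same order was seen in the correlations between libraries, which are across genes and are given as a description. Pearson's r of log2 CPM was 0.895, 0.928 and 0.895 between control and treated culture of rats 1, 2 and 3. Between cultures of different rats it lay from 0.840 to 0.887 across the conditions and from 0.873 to 0.890 within a condition. The biological coefficient of variation estimated by edgeR was 34.2% when only the groups were fitted and 20.2% when the rat number was added as a block.

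TGFβ changed the counts of a small number of identifiers when the groups were compared without regard to the rat. Among 3888 tested, 8 (0.206%) passed edgeR's quasi-likelihood test at an adjusted threshold of 0.05, 7 higher (0.18%) and 1 lower (0.0257%) in treated cells. The log2 fold changes of the 7 raised identifiers ran from 2.10 to 3.56, with adjusted p from 9.30e-05 to 0.0329 in edgeR. For each of the 8, the 3 treated libraries did not overlap with the 3 controls, against 5.27% (higher) and 5.3% (lower) of all tested. The test itself favours identifiers with separated groups, so this is no further support. At an unadjusted p under 0.05 in edgeR, 232 of the 3888 tested identifiers passed, 139 higher and 93 lower. Where nothing differs, a share of 0.05 of the tests passes this threshold, so no response is read from these counts.

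With the rat number as a block, so that each treated culture is compared with the control of its own rat, 164 identifiers (4.22%) passed the same test. Of these 106 (2.73%) were higher and 58 (1.49%) lower with TGFβ. All 8 identifiers called without the block were among them, with the same direction. The spread is estimated by edgeR with information shared across genes, so a small p does not rest on the 3 pairs of an identifier alone. An exact test on 3 pairs cannot give a p under 0.25. More than 2-fold changes were found for 70 of the raised and 37 of the lowered identifiers. The median log2 fold change was 1.27 among the raised, which ran from 0.55 to 3.55, and -1.10 among the lowered, which ran from -0.62 to -2.87. Over all tested identifiers the median was -0.01. The libraries of the groups did not overlap for 70 of the raised and 38 of the lowered identifiers, and did overlap for the remaining 56. Among all tested, 5.27% did not overlap and were higher with TGFβ, and 5.3% did not overlap and were lower. DESeq2, with which the study's own analysis was made, called 28 of 2115 tested identifiers without the block and 77 of 2674 with it.

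**Figure D2:**
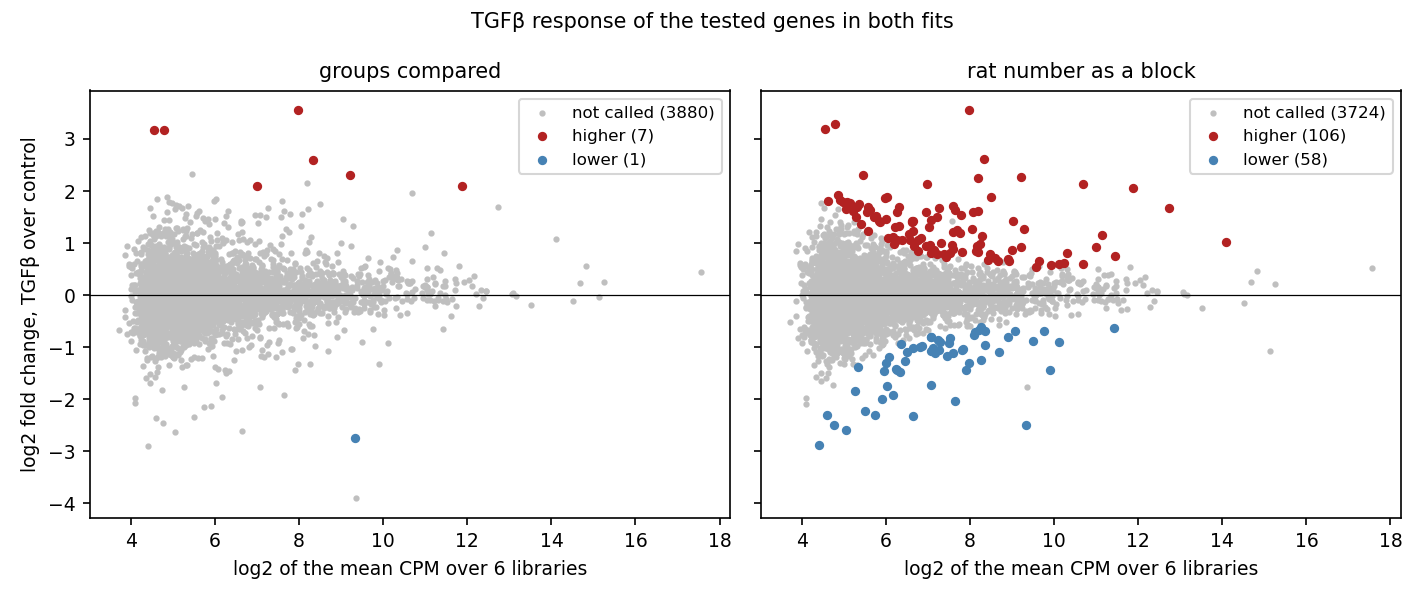
Log2 fold change of TGFβ over control against the log2 of the mean CPM for the 3888 tested identifiers, with the groups compared (left) and with the rat number as a block (right). Red points are higher and blue points lower at an adjusted p under 0.05; 7 and 1 are coloured on the left, and 106 and 58 on the right.

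The share of identifiers called with the block was higher among those with more counts. With the tested identifiers in 3 groups of about equal size by their mean count, the block fit called 1.00% of those with mean counts from 6.5 to 16.3, 2.85% of those from 16.5 to 36.5 and 8.82% of those from 36.7 upward. The median size of the called log2 changes was 1.93, 1.51 and 1.02 in the same order. Of the best counted identifiers, 72 rose and 42 fell. Among the least counted, 9 rose and 4 fell. The 8 calls made without the block were 2 among the least counted, 0 in the middle group and 6 among the best counted. Whether better counted identifiers responded more often or were only more readily detected was not tested. At low counts a change near the median of the best counted identifiers may not have been detectable.

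ENSRNOG00000001414 showed the largest increase that passed the test in both fits. In the controls of rats 1, 2 and 3 it had 47.7, 50.4 and 16.4 CPM, from 21, 35 and 7 counts. In the treated cultures it had 307, 543 and 532 CPM, from 148, 232 and 167 counts. The lowest treated culture stood above the highest control by a wide margin, and rat 3 had the lowest control and the largest rise. The mean was 38.2 ± 18.9 CPM (SD, n = 3) in controls and 461 ± 134 CPM (SD, n = 3) with TGFβ, a fold change of 11.8 in edgeR's fit. The log2 fold change was 3.56 (standard error 0.46, adjusted p = 9.30e-05 in edgeR), and 3.55 with the rat as a block (standard error 0.26, adjusted p = 5.29e-14). Rat by rat the change in log2 CPM was 2.58, 3.32 and 4.69.

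ENSRNOG00000015036 was the most even of the printed responses. Its controls had 123, 80.7 and 70.3 CPM in rats 1, 2 and 3, and its treated cultures 607, 543 and 510 CPM. Rat 1 was highest in both conditions and rat 3 lowest in both. The mean rose from 91.2 ± 27.7 CPM (SD, n = 3) to 553 ± 49.4 CPM (SD, n = 3), or 2.60 on the log2 scale in edgeR's fit (adjusted p = 0.00116, standard error 0.40) and 2.62 with the block (adjusted p = 2.47e-13). The changes in log2 CPM of the 3 rats were 2.27, 2.69 and 2.78.

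ENSRNOG00000017210 was the 1 identifier lower with TGFβ that passed the adjusted threshold without the block. It had 716, 392 and 2239 CPM in the controls of rats 1, 2 and 3, and 184, 84.3 and 229 CPM in the treated cultures. The control of rat 3 stood far above the other controls, and the order of the rats was the same in both conditions. The mean was 1115 ± 986 CPM (SD, n = 3) in controls and 166 ± 74.3 CPM (SD, n = 3) with TGFβ, or -2.75 on the log2 scale (adjusted p = 0.0139 in edgeR, standard error 0.53). The changes in log2 CPM within rats 1, 2 and 3 were -1.93, -2.16 and -3.26, and the fit with the block gave -2.50 (standard error 0.21, adjusted p = 1.92e-12 in edgeR). Without the control of rat 3 the unblocked log2 fold change was -1.73 with an adjusted p of 0.231 in edgeR, and with DESeq2 and no block the adjusted p was 0.0848.

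ENSRNOG00000001528 was lower with TGFβ in each rat and passed edgeR's test with the block but not without it. Its controls had 218, 212 and 506 CPM in rats 1, 2 and 3, and its treated cultures 29.0, 56.2 and 169 CPM. Rat 3 was highest in both conditions, and its treated culture lay below every control. The mean was 312 ± 168 CPM (SD, n = 3) in controls and 84.7 ± 74.1 CPM (SD, n = 3) with TGFβ. The log2 fold change was -1.92 (standard error 0.50, adjusted p = 0.100 in edgeR) without the block and -2.03 (standard error 0.24, adjusted p = 2.67e-08) with it. Without the block, single libraries and settings decided the call. DESeq2 gave an adjusted p of 0.0477, and edgeR with no filter on low counts 0.00505. In edgeR, leaving out the treated culture of rat 3 gave a log2 fold change of -2.90 (adjusted p = 0.00106), and leaving out the control of rat 3 gave -1.36 (adjusted p = 0.698). The adjusted p in edgeR was 0.0185 without the control of rat 1 and 0.00969 without that of rat 2. The changes in log2 CPM of rats 1, 2 and 3 were -2.74, -1.84 and -1.56.

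**Figure D3:**
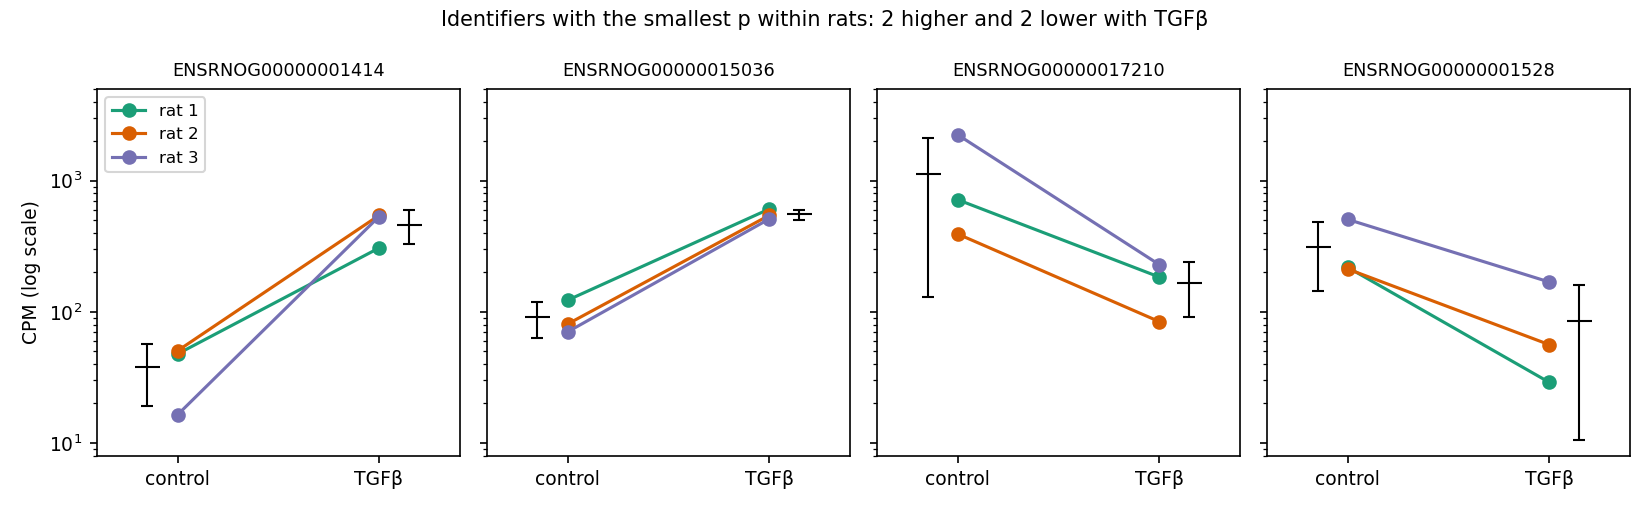
CPM on a log axis of the 4 printed identifiers in each library, with a line joining the control and the treated culture of each rat; black marks are the mean and SD of 3 libraries. Every line rises for ENSRNOG00000001414 and ENSRNOG00000015036 and falls for the other two, while the level at which a line starts differs between rats.

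Over all tested identifiers, the changes in different rats were only weakly related. The change of each identifier was taken as log2 CPM of the treated culture minus that of the control of the same rat, so that the 3 sets of changes share no library. Across the 3888 identifiers, Pearson's r between these changes was 0.232 for rats 1 and 2, 0.214 for rats 1 and 3 and 0.279 for rats 2 and 3 (Spearman's rho 0.226, 0.168 and 0.215). Many of these identifiers have few counts, genes are not independent replicates, and nothing is drawn from correlations of this size. The changes spread less in rat 2, with an SD of 0.57, than in rats 1 and 3, with SDs of 0.76 and 0.79. All 3 rats moved up for 682 identifiers (17.5%) and down for 668 (17.2%). Each of the 164 identifiers called with the block moved the same way in all 3 rats. They were called from these same changes, so this agreement is no separate support.

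**Figure D4:**
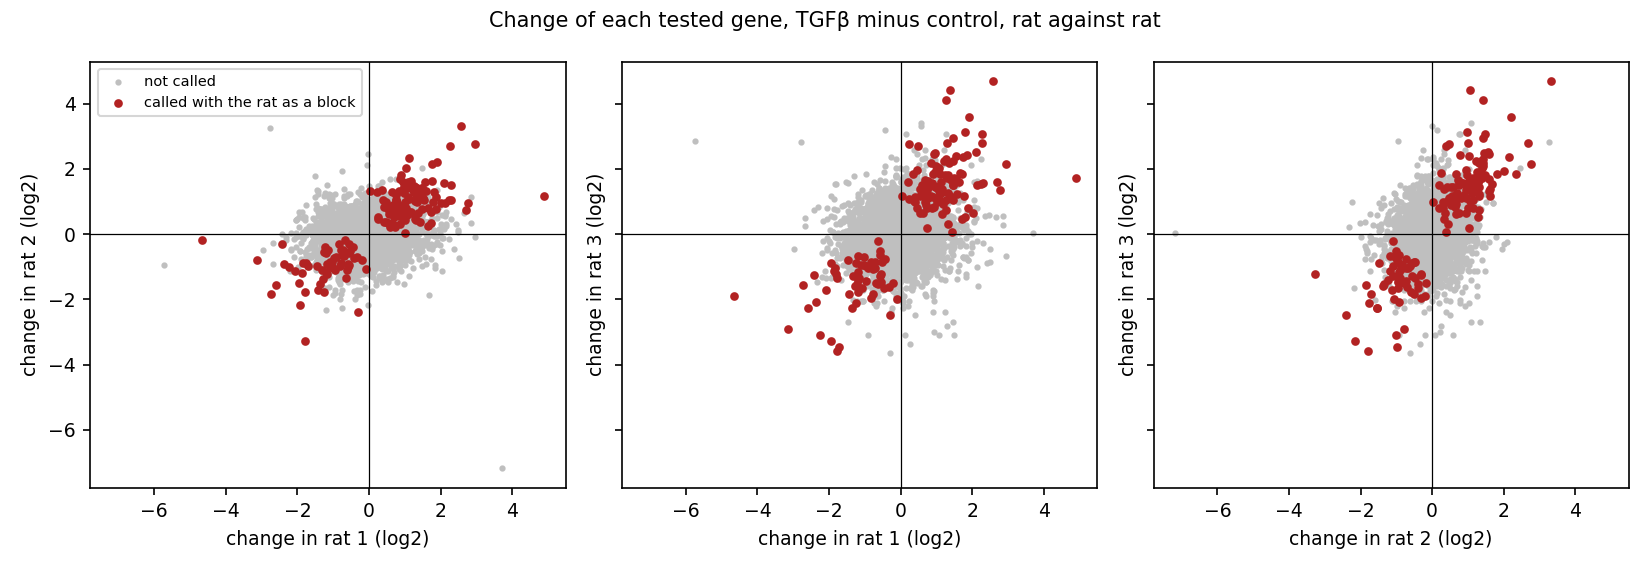
Change in log2 CPM (TGFβ minus control) of the 3888 tested identifiers in one rat against another, for the 3 pairs of rats. Red points are the 164 identifiers called with the rat as a block, which lie in the quadrants where both rats moved the same way; grey points are the others.

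The identifiers that differed between rats outnumbered those that differed with TGFβ. In the fit with the block, edgeR's test of the rat terms, added after the data were seen, gave 843 identifiers (21.7%) at an adjusted p under 0.05, against 164 for TGFβ. This test compares 3 rats, whereas that of TGFβ compares 2 conditions. Of the 164 identifiers called for TGFβ, 79 (48.2%) also differed between rats. Calls for TGFβ were more frequent among better counted identifiers, and this share was not compared at matched counts. The median size of the TGFβ change was 0.28 on the log2 scale over all tested identifiers, and the median span between the lowest and the highest rat was 0.80. The span is taken over 3 rats and the TGFβ change between 2 conditions, so these sizes are not on an equal footing.

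A handful of identifiers held a large and variable part of the counts. The same identifier was the largest in each of the 6 libraries, with 22.2%, 10.6% and 13.4% of the counts on genes in the controls of rats 1, 2 and 3, and 13.3%, 21.1% and 22.5% in the treated cultures. The conditions overlapped. The 5 largest identifiers of a library together held from 20.7% to 40.2% of its counts. TMM factors, which correct for such shares, ran from 0.711 in the treated culture of rat 3 to 1.34 in the control of rat 2. With the size factors of DESeq2 in their place, the median log2 change of all tested identifiers was 0.00, and 163 of the 164 calls of the block fit were kept.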

How the data were processed

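The authors aligned the rat reads with TopHat2 2.0.11 to the build Rnor_5.0 and deposited raw counts per gene and lane from HTSeq, with no normalization. The labels name Smart-seq2 and a tdTomato sort for every sample, whereas the methods give Trizol extraction and a directional NEBNext kit for the rat cultures. Both lanes of a library were summed, and the 5 HTSeq category rows per file, which name no gene and hold from 99.3% to 99.5% of a library's entries, were set aside.

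The 3888 identifiers passing edgeR's filter on low counts were tested in R 4.3.3 with edgeR 4.0.16 (TMM, quasi-likelihood test, Benjamini-Hochberg adjustment over all 3888, threshold 0.05). Log2 CPM used a prior count of 2. The main fit had the group only. The labels give libraries of the same number the same animal, so the rat number was also fitted as a block. The deviations of such pairs from the group means correlated across genes at 0.359, 0.511 and 0.345, against at most -0.0703 in other pairs. Deviations from a group mean cancel out within the group, so positive values in same-number pairs push the other pairs negative. This gap is therefore partly built in and is not taken as support for the pairing. Without subtracting group means, Pearson's r of log2 CPM between control and treated cultures was 0.895 to 0.928 in same-number pairs. It was 0.840 to 0.887 in other pairs. Alternatives were DESeq2 1.42.0, its size factors, other filters, single lanes, each library left out and, added after seeing the data, variants of the block fit. Scripts were tested on simulated data. No 2 libraries were identical. The members and lists were chosen with earlier results of these data known. The rule for named genes and the gene lists need symbols, which the rat files lack, so they were not applied. In their place, the 2 identifiers of each direction with the smallest p in the block fit are printed, chosen after their values were seen.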

Additional observations from a re-analysis of the deposited data

How the results depend on the processing

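Without the block, 8 of 3888 tested identifiers were called (7 higher, 1 lower). The replicate block, with pairs taken from the animal numbers of the labels, gave 164 of the same 3888 (106 higher, 58 lower). DESeq2 gave 28 of 2115 tested (23 and 5), and no filter on low counts gave 37 of 14398 (23 and 14). Lane 7 alone gave 4 higher and 2 lower of 2306 tested. Leaving out 1 library at a time, with 4033 to 4695 tested, gave from 7 to 36 calls (5 to 23 higher, 2 to 13 lower). There were 7 calls without the control of rat 3 and 36 without that of rat 2. The other 4 counts lay between 16 and 26. All 8 were called again without a filter and with the block, 5 with DESeq2, and 3 without the control of rat 3. With DESeq2's size factors the count was 8. Within rats, the 164 became 77 of 2674 tested with DESeq2 (53 higher, 24 lower) and 69 of 2306 with lane 7 alone (42 and 27). On genes with a mean of at least 30 counts, 113 of 1544 were called, 66 of them higher. With 1 rat left out, the block fit gave from 127 to 143 calls among 3658 to 4535 tested. Each of these fits kept 113 of the 164. Both printed identifiers that rose passed the test in every alternative run. Both that fell kept their direction, with adjusted p up to 0.231 for ENSRNOG00000017210 and 0.698 for ENSRNOG00000001528 without the block, and all block fits called both. DESeq2, the stricter filter and a single lane also tested fewer genes. With lane 7 alone and the block, 143 of the 164 were still tested and 69 of them were called again. The cause of these moves was not tested. Removing genes on opposite strands and scoring gene lists were not run, since no rat annotation was used here. The few counts on genes limit the test to 3888 of 26405 identifiers. Uniquely aligned reads that fell on no gene numbered from 30073822 to 48622140 per rat library.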

Other observations

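The 2 lanes of a rat library are the same library sequenced again, and for most identifiers their counts differed by little more than sampling noise. Over identifiers with at least 20 counts, chi-square per degree of freedom between lanes was from 1.31 to 7.61, against 9.09 or more between any 2 libraries. The first compares single lanes and the second libraries with both lanes summed. Chi-square of a given difference grows with depth, so these values are not like for like. In all, 8 identifiers had a chi-square between lanes over 50 in at least 1 library. Without those over 50 in a library, the value between lanes was from 1.01 to 1.64. In the treated culture of rat 3, 1 of these identifiers had 7278 counts in lane 7 and 25044 in lane 8. In the control of rat 2, another had 2550 in lane 7 and 3 in lane 8. These 8 identifiers held from 13.1% to 33.9% of the counts on genes of a library. The identifier with the largest share of every library was 1 of them. Leaving them out kept the 8 calls made without the block and 158 of the 159 block calls that could still be tested. It gave 177 calls with the block. The filter on low counts was applied again after their removal and left 3796 identifiers, so others besides these 8 also dropped out.

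The share of the largest identifier and the number of alignments that were not unique are given side by side, over 6 libraries and with no test. The control of rat 1 had 56791288 such alignments and 22.2% of its counts on that identifier. The treated culture of rat 3 had 43195362 and 22.5%, and that of rat 2 had 38804095 and 21.1%. The other 3 libraries, the controls of rats 2 and 3 and the treated culture of rat 1, had from 29215298 to 31446285, and from 10.6% to 13.4%. High and low libraries occurred in both conditions.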
